A study of Mus musculus with 13 samples.

Results

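Mouse NKR-P1 receptors and their Clr ligands were followed in RNA-seq counts of 2 sorted populations, the NK cells resident in the liver (LrNK) and the conventional ones (cNK). The 6 genes were Klrb1a, Klrb1b, Klrb1c, Klrb1f, Clec2d and Clec2i, each taken by its Ensembl identifier under the GENCODE M21 name. They are 6 of the 54532 gene rows in each library, and all 6 passed the filter on low counts in every comparison.

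The series holds 13 libraries from C57BL/6J mice of 8 to 10 weeks. LrNK were labelled as liver lymphocytes and cNK as splenocytes, so cell type and organ cannot be told apart. The groups were LrNK from CD8KO mice (3 libraries), LrNK from wild-type B6 mice (4), cNK from CD8KO mice (3) and cNK from wild-type B6 mice (3). No further allele or treatment is named for any group. The labels give no sort antibodies and do not say whether libraries came from separate animals, so p-values measure the spread between these samples, which may be technical. The series title concerns CD8 T cells and the maturation of LrNK, and the comparisons ask how these transcripts differ between the cell types and between the genotype labels.

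Cd8a counts were higher under the CD8KO label in both cell types. The labels do not name the allele, and counts per gene do not show whether the protein is made. Cd8a was at 41.6, 42.6 and 45.1 counts per 1000000 (CPM) in LrNK labelled CD8KO, against 18.5 to 22.4 CPM in LrNK B6, while cNK labelled CD8KO had 85.9 to 109 CPM, against 0.561 to 0.578 CPM in cNK B6. The labels are kept here as labels, and a direction between them is one between libraries so labelled. Xist also differed, at 94.9 to 136 CPM in LrNK labelled CD8KO against 0.282 to 1.90 CPM in LrNK B6, while cNK labelled CD8KO had 0.247, 265 and 815 CPM against 0.0291 to 0.299 CPM in cNK B6. The Y-linked Ddx3y was at 67.1 to 77.7 CPM in LrNK labelled CD8KO against 92.0 to 129 CPM in LrNK B6. In cNK labelled CD8KO it was at 102, 60.5 and 3.13 CPM, against 115 to 143 CPM in cNK B6. LrNK labelled CD8KO and cNK labelled CD8KO sample 2 held both transcripts. The part of the sex of the cells in the results was not tested.

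Total counts, in units of 1000000, ran from 35.9 to 47.7 in LrNK labelled CD8KO, 30.6 to 43.0 in LrNK B6, 48.6 to 59.7 in cNK labelled CD8KO and 53.5 to 72.7 in cNK B6. LrNK labelled CD8KO libraries 2 and 3, and LrNK B6 libraries 2 and 4, differed far less from each other (chi-square per degree of freedom 2.67 and 3.04) than the other LrNK pairs (196 to 283) or the cNK pairs (8.92 to 18.1). Each of these 2 pairs was summed and counted as 1 sample, which left 2, 3, 3 and 3 samples in the 4 groups. LrNK labelled CD8KO sample 1 (15797 detected genes) and LrNK B6 samples 1 and 3 (15159 and 13917) had fewer detected genes than the other LrNK and cNK libraries (19896 to 22921). The labelled cell types matched their markers: Itga1, Cxcr6, Tnfsf10, Il7r and Cd69 were called higher in LrNK and Itga2, Itgam, Eomes, S1pr5 and Cma1 called lower, within both labels.

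NKR-P1 receptors are C-type lectin-like receptors of NK cells, encoded by the Klrb1 genes. NKR-P1A (Klrb1a), NKR-P1C (Klrb1c, the NK1.1 antigen of B6 mice) and NKR-P1F (Klrb1f) are regarded as activating, and NKR-P1C signals through the adaptor chain encoded by Fcer1g. NKR-P1B (Klrb1b) is inhibitory: a tyrosine motif (ITIM) in its cytoplasmic tail recruits the phosphatase SHP-1, encoded by Ptpn6. The Clr ligands lie among the receptor genes: Clec2d encodes Clr-b, the ligand of NKR-P1B, which most blood cells carry, and Clec2i encodes Clr-g, a ligand of NKR-P1F.

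All 6 genes lie within 0.577 Mb of chromosome 6 (GRCm38, chr6:128609227-129186534). Klrb1a (chr6:128609227-128623533), Klrb1c (chr6:128778485-128789215) and Klrb1b (chr6:128813706-128826331) are on the minus strand. Clec2i (chr6:128887588-128898167), Klrb1f (chr6:129045901-129057464) and Clec2d (chr6:129180615-129186534) are on the plus strand. The receptor coding sequences are close relatives: Klrb1a shared 81.1% of aligned bases with Klrb1b and 75.7% with Klrb1c, and Klrb1b shared 70.5% with Klrb1c. The 2 ligand genes shared 80.9%.

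The ITIM of Klrb1b is at the start of its coding sequence. That start is shown here for the receptors from GENCODE M21 transcripts (GRCm38), as 60 bases that begin at an ATG start codon. Capitals mark the codons of an ITIM, found by translating each sequence and searching it for the pattern [ILV]xYxx[LV], where x is any amino acid.
Klrb1b: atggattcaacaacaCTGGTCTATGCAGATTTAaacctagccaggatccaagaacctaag
Klrb1a: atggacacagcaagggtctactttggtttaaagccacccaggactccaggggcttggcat
Klrb1c: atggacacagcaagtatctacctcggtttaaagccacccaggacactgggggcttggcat
Klrb1f: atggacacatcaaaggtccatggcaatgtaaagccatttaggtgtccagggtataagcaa
Klrb1: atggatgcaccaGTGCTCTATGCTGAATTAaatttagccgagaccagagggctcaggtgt
The ITIM codons begin at base 16 in Klrb1b and at base 13 in Klrb1, the gene of the inhibitory receptor NKR-P1G, where it is the first of 2 matches in the coding sequence. The search found none in the coding sequences of Klrb1a, Klrb1c and Klrb1f. A looser pattern that also allows serine in the first place was not searched. The Klrb1c window holds SIYLGL, which fits that looser pattern, so the absence in Klrb1c holds for the stricter pattern only. The window opens at base 19 of the annotated coding sequence in Klrb1a and at base 145 in Klrb1c, the first in-frame ATG followed by an aspartate codon, and at base 1 in the others.

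The promoters are shown for Klrb1b and Klrb1c because their log2 changes between the cell types had opposite signs. That of Klrb1c was not called for B6, and Klrb1a and Klrb1f were lower in LrNK as well. They run from 250 bases before to 50 bases after the RefSeq start site (GRCm38.p6), on the minus strand that carries both genes, at chr6:128826266-128826565 for Klrb1b and chr6:128788592-128788891 for Klrb1c. Capitals mark matches to AGGAAGT (an ETS motif) or TGTGGT (a RUNX motif), each searched on both strands.
Klrb1b: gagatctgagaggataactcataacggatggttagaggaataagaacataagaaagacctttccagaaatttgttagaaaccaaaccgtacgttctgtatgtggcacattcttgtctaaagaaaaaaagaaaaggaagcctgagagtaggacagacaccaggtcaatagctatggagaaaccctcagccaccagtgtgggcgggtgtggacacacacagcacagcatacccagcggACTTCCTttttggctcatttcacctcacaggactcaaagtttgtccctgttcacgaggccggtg
Klrb1c: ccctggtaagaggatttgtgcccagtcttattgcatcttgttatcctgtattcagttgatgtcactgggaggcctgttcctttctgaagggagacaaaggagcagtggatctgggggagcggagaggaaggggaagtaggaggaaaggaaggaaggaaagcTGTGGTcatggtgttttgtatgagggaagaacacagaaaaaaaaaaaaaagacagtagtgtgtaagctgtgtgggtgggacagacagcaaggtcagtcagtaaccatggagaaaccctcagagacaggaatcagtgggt
The Klrb1b window held 1 ETS match, 14 bases before the start, and no RUNX match. The Klrb1c window held 1 RUNX match, 89 bases before the start, and no ETS match. Set beside the similar Klrb1a window, it ends short of the Klrb1a ETS match, which lies 39 bases after the Klrb1a start. Bases beyond the windows were not searched. Of the 6 genes, the ETS letters were in the windows of Klrb1a, Klrb1b and Klrb1f, and in 9.4% of 32851 RefSeq promoters. The RUNX letters were in those of Klrb1a and Klrb1c, and in 16.8% of promoters. GGTGTGA, a T-box motif, was in none of the 6 windows and in 4.0% of promoters. The Klrb1b and Klrb1c windows shared 44.9% of aligned bases, against 69.4% for Klrb1a and Klrb1c. These matches describe letters and not binding, and the matches and shared bases depend on where each start site is placed.

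Klrb1b was the one member called higher in LrNK than in cNK, and it was so under both labels. Klrb1b was at 278 and 373 CPM in LrNK labelled CD8KO, against 162, 150 and 152 CPM in cNK labelled CD8KO. It was at 506, 519 and 505 CPM in LrNK B6, against 147, 146 and 135 CPM in cNK B6. Each LrNK sample was above each cNK sample, and the B6 samples of either cell type lay close together. The log2 change was 1.21 ± 0.17 (SE, edgeR quasi-likelihood test with Benjamini-Hochberg adjustment over all genes tested, adjusted p = 0.00628) for the CD8KO labels. It was 1.92 ± 0.11 (edgeR adjusted p = 2.12e-04) for B6, a fold of 3.79 with a 95% interval of 3.14 to 4.56.

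The 3 activating receptors had lower levels in LrNK. Klrb1a and Klrb1f were called lower under both labels, and Klrb1c for the CD8KO labels. Klrb1c was at 308 and 384 CPM in LrNK labelled CD8KO, against 877, 854 and 904 CPM in cNK labelled CD8KO. It was at 617, 592 and 443 CPM in LrNK B6, against 772, 837 and 824 CPM in cNK B6. No LrNK sample reached a cNK sample of its label, and LrNK B6 sample 3 was the lowest of its group. The log2 change of Klrb1c was -1.21 ± 0.15 (edgeR adjusted p = 0.00442) for the CD8KO labels, which passed. It was -0.47 ± 0.17 (edgeR adjusted p = 0.0962, 95% interval -0.87 to -0.08) for B6, which did not. The labels do not say whether NK1.1, the product of Klrb1c, was used in the sort.

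Klrb1a was at 65.7 and 62.9 CPM in LrNK labelled CD8KO, against 119, 113 and 124 CPM in cNK labelled CD8KO. It was at 96.1, 88.0 and 103 CPM in LrNK B6, against 135, 138 and 133 CPM in cNK B6. The ranges of LrNK and cNK did not overlap under either label. Klrb1a fell in LrNK by 0.76 ± 0.10 on the log2 scale for the CD8KO labels (edgeR adjusted p = 0.00435) and by 0.42 ± 0.10 for B6 (edgeR adjusted p = 0.0261).

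Klrb1f was at 100 and 87.5 CPM in LrNK labelled CD8KO, against 176, 167 and 184 CPM in cNK labelled CD8KO. It was at 112, 109 and 95.0 CPM in LrNK B6, against 179, 165 and 184 CPM in cNK B6. These ranges did not overlap between the cell types either. Klrb1f fell in LrNK by 0.78 ± 0.10 on the log2 scale for the CD8KO labels (edgeR adjusted p = 0.00438) and by 0.65 ± 0.12 for B6 (edgeR adjusted p = 0.0132). Without any 1 cNK B6 sample, neither Klrb1a (log2 change -0.47 to -0.44, edgeR adjusted p from 0.106 to 0.117) nor Klrb1f (-0.73 to -0.66, from 0.0505 to 0.0727) was called for B6, although the changes were no smaller. Without LrNK B6 sample 2, Klrb1c was called for B6 (-0.58, edgeR adjusted p = 0.0428).

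**Figure D1:**
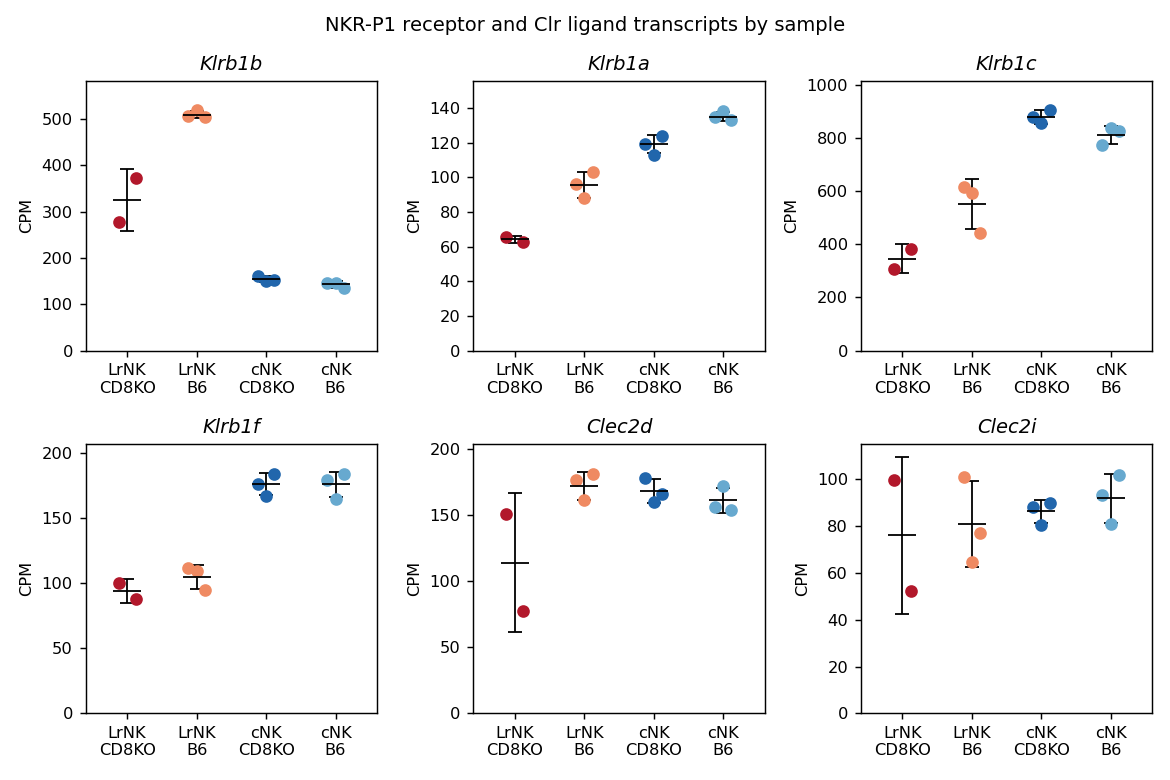
CPM of each of the 6 genes (vertical axes, from 0) in the 4 groups (horizontal axis). Points are samples, the bar is the mean and the whiskers 1 SD (n = 2, 3, 3 and 3). Klrb1b is highest in LrNK, with LrNK B6 at 505 to 519 CPM, and Klrb1a, Klrb1c and Klrb1f are highest in cNK.

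The ligand transcripts were not called between the cell types under either label. Clec2d was at 151 and 77.2 CPM in LrNK labelled CD8KO, against 178, 160 and 166 CPM in cNK labelled CD8KO. It was at 176, 161 and 181 CPM in LrNK B6, against 156, 172 and 154 CPM in cNK B6. LrNK labelled CD8KO sample 2 stood low, and the B6 groups overlapped. The log2 change of Clec2d was -0.45 ± 0.26 (edgeR adjusted p = 0.258, 95% interval -1.09 to 0.19) for the CD8KO labels. It was 0.18 ± 0.10 (edgeR adjusted p = 0.280, 95% interval -0.06 to 0.42) for B6.

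Clec2i was at 99.7 and 52.4 CPM in LrNK labelled CD8KO, against 88.2, 80.7 and 89.9 CPM in cNK labelled CD8KO. It was at 101, 64.9 and 77.0 CPM in LrNK B6, against 93.3, 81.0 and 102 CPM in cNK B6. The cell types overlapped under both labels, with LrNK spread more widely. The log2 change of Clec2i was -0.07 ± 0.24 (edgeR adjusted p = 0.856, 95% interval -0.68 to 0.54) for the CD8KO labels. It was -0.11 ± 0.17 (edgeR adjusted p = 0.721, 95% interval -0.50 to 0.29) for B6.

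For both ligands the result for the CD8KO labels rested on 1 sample. LrNK labelled CD8KO sample 1, one of the samples with few detected genes, also had the highest neutrophil and monocyte sum (10121 CPM). The part of those cells in its ligand levels was not tested. Without this sample, Clec2d (log2 change -0.96) and Clec2i (-0.56) were lower in LrNK. Without sample 2, Clec2i was higher (0.25). Those fits hold 1 LrNK sample, which is assumed to vary like the cNK samples.

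Counted together, 1 of the 6 genes was called higher and 3 lower in LrNK labelled CD8KO than in cNK labelled CD8KO, where 15.4% of 17795 genes tested were called higher and 11.6% lower. For B6, 1 was called higher and 2 lower, where 10.9% of 16456 genes tested were called higher and 9.83% lower. The sample ranges of LrNK and cNK did not overlap for 1 gene upward and 4 downward under the CD8KO labels, where 23.3% and 38.4% of genes tested separated in those directions. For B6 this held for 1 gene upward and 3 downward, where 17.0% and 31.7% of genes did. The median log2 change of the 6 genes was -0.61 for the CD8KO labels and -0.26 for B6, beside -0.05 and -0.08 over all genes tested. In bulk samples such as these, fewer cells of a type and less RNA per cell cannot be told apart.

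Sums of markers of other cells also differed between the cell types. Summed CPM of the 10 neutrophil and monocyte markers was 3037 to 10121 in LrNK labelled CD8KO and 863 to 4813 in LrNK B6, against 1139 to 1204 in cNK labelled CD8KO and 1035 to 1138 in cNK B6. LrNK B6 libraries 2 and 4 (873 and 863) lay below each cNK B6 library in this sum. That of the 11 T cell markers was 875 to 1090 in LrNK labelled CD8KO and 1420 to 1722 in LrNK B6, against 783 to 850 in cNK labelled CD8KO and 729 to 815 in cNK B6. That of 8 dendritic cell markers was 1767 to 2221 in LrNK labelled CD8KO and 1265 to 2515 in LrNK B6, against 801 to 859 in cNK labelled CD8KO and 802 to 899 in cNK B6. That of the 7 NK markers was 4920 to 5938 in LrNK labelled CD8KO and 6318 to 8088 in LrNK B6, against 9542 to 9718 in cNK labelled CD8KO and 9494 to 9708 in cNK B6. No marker of these 4 lists was at 0 in all libraries of a group, except Clec9a of the dendritic list in cNK B6 and Cd8b1 of the T cell list in LrNK B6. Hepatocyte markers summed to 29.2 to 62.3 CPM in LrNK and 0.990 to 1.34 CPM in cNK. The part of these cells in the results was not tested.

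Calls of Klrb1a, Klrb1f and Klrb1c changed with the scaling. When the samples were scaled to 5 NK markers (Ncr1, Klrk1, Nkg7, Il2rb and Txk), the median gene moved by 0.52 on the log2 scale for the CD8KO labels and by 0.20 for B6. Klrb1a was then at -0.23 for the CD8KO labels (edgeR adjusted p = 0.321) and -0.20 for B6 (0.439), and neither was called. Klrb1f was at -0.24 for the CD8KO labels (0.358) and was not called, and was still called at -0.46 for B6. Klrb1b (1.71 for the CD8KO labels and 2.13 for B6) stayed called higher, and Klrb1c for the CD8KO labels (-0.70, edgeR adjusted p = 0.00679) stayed called lower. Scaled to total counts, Klrb1c was called lower for B6 as well (-0.56, edgeR adjusted p = 0.0447). Of the 5 scaling genes, Ncr1 (-1.30 for the CD8KO labels and -0.78 for B6) and Klrk1 (-1.10 and -0.79) were themselves called lower in LrNK under both labels, and Nkg7 for the CD8KO labels (-1.07, edgeR adjusted p = 0.0190).

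**Figure D2:**
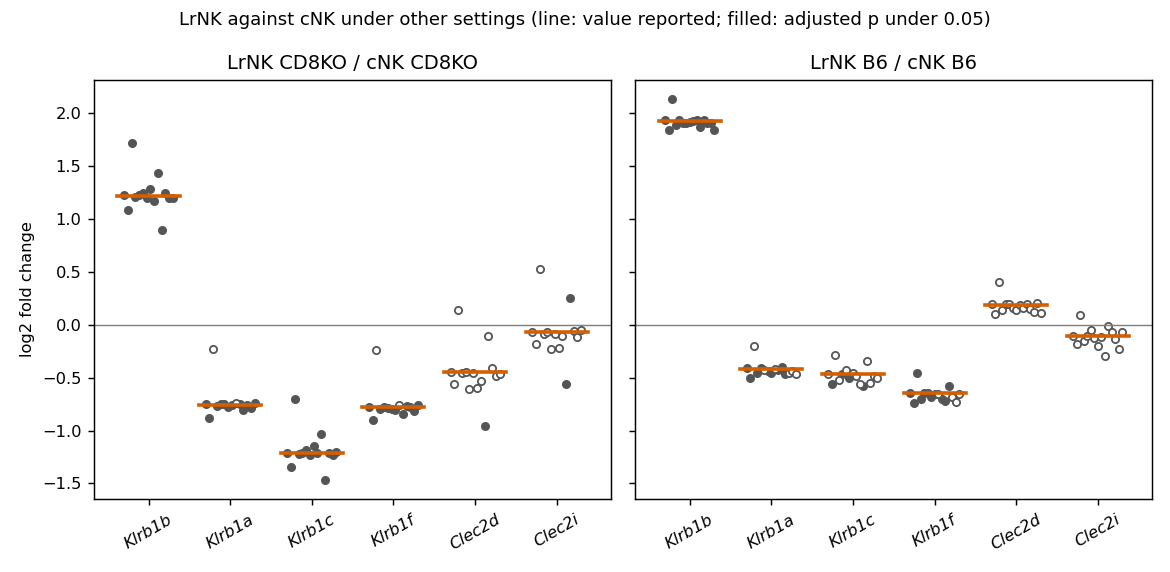
Log2 fold change of LrNK over cNK (vertical axis) for each gene under every other setting tried, for the CD8KO labels (left) and B6 (right). The line is the value reported, filled points were called and open points were not. Klrb1b stays between 0.89 and 1.71 for the CD8KO labels and between 1.84 and 2.13 for B6, while Clec2i lies on both sides of 0.

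Within a sample, the receptors can be compared with each other per kilobase of exon. Klrb1b made up 39.0 to 44.1% of the summed CPM per kb of the 4 receptors in LrNK labelled CD8KO and 41.2 to 46.5% in LrNK B6. Its share was 12.6 to 13.7% in cNK labelled CD8KO and 11.8 to 13.2% in cNK B6. Klrb1c made up 32.6 to 34.1% and 30.7 to 37.8% of the same sum in LrNK labelled CD8KO and LrNK B6, against 55.8 to 56.6% and 52.2 to 54.7% in cNK labelled CD8KO and cNK B6. The inhibitory Klrb1b thus exceeded Klrb1c per kb in every LrNK sample and in no cNK sample. In LrNK this order depends on the exon lengths used. In CPM, Klrb1c was above Klrb1b in each LrNK sample except LrNK B6 sample 3 (443 CPM against 505 CPM).

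The ratio of Klrb1b to Klrb1c, which no scaling between samples changes, averaged 1.24 ± 0.0658 in LrNK labelled CD8KO (SD, n = 2) and 1.26 ± 0.227 in LrNK B6 (n = 3). It averaged 0.234 ± 0.0110 in cNK labelled CD8KO and 0.234 ± 0.0175 in cNK B6 (n = 3 each). Within either cell type the ratio differed between the labels by less than the spread between samples. The summed receptor level was 320 to 380 CPM per kb in LrNK labelled CD8KO and 487 to 551 in LrNK B6, against 509 to 542 in cNK labelled CD8KO and 499 to 516 in cNK B6.

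**Figure D3:**
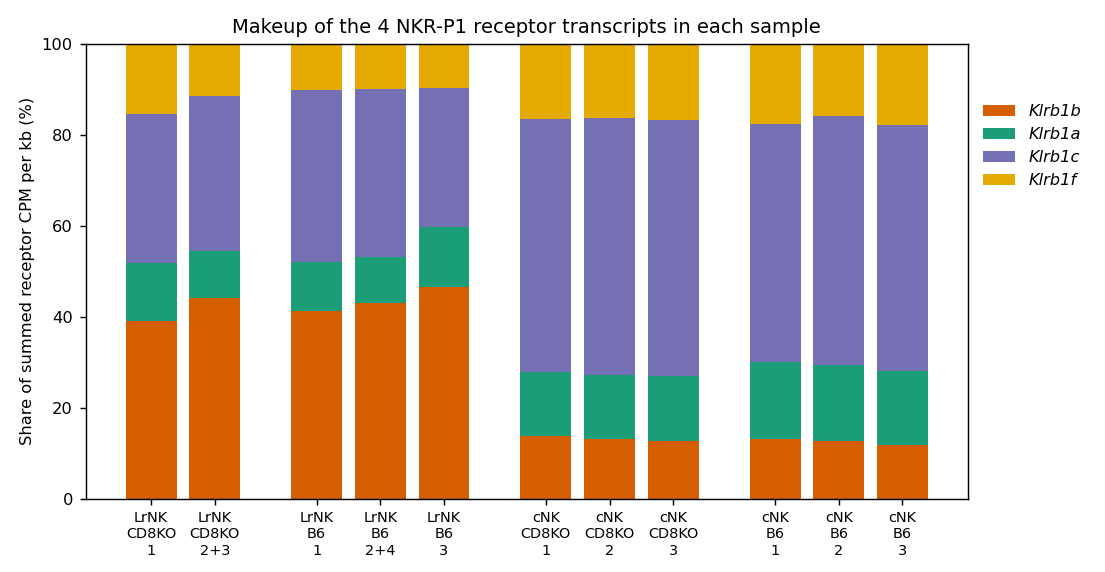
Share of each receptor in the summed CPM per kb of the 4 receptors (vertical axis, percent) in each sample, by group. The Klrb1b segment spans 39.0 to 46.5% in LrNK samples and 11.8 to 13.7% in cNK samples, and the Klrb1c segment is the largest in each cNK sample.

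Per kb, the order of mean levels in LrNK labelled CD8KO was Klrb1b (146 ± 30.1), Klrb1c (117 ± 18.0), Clec2d (94.1 ± 43.0), Klrb1f (46.4 ± 4.45), Klrb1a (40.3 ± 1.24) and Clec2i (24.5 ± 10.8 CPM per kb, SD, n = 2). Klrb1b, Klrb1c and Clec2d overlapped within 1 SD. In LrNK B6 it was Klrb1b (229 ± 3.63), Klrb1c (186 ± 31.8), Clec2d (142 ± 8.63), Klrb1a (59.9 ± 4.63), Klrb1f (52.0 ± 4.51) and Clec2i (26.1 ± 5.94 CPM per kb, n = 3), and Klrb1a and Klrb1f overlapped.

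In cNK labelled CD8KO the order was Klrb1c (297 ± 8.41), Clec2d (138 ± 7.75), Klrb1f (86.8 ± 4.09), Klrb1a (74.4 ± 3.26), Klrb1b (69.3 ± 2.84) and Clec2i (27.7 ± 1.59 CPM per kb, n = 3). Klrb1a and Klrb1b overlapped within 1 SD. In cNK B6 it was Klrb1c (274 ± 11.6), Clec2d (132 ± 7.93), Klrb1f (86.8 ± 4.79), Klrb1a (84.7 ± 1.65), Klrb1b (64.0 ± 2.97) and Clec2i (29.6 ± 3.37 CPM per kb, n = 3), and Klrb1f and Klrb1a overlapped. Clec2i, the longest of the 6 by exon length, was the lowest per kb in each group.

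Some reads may not belong to 1 gene alone. Of the 50-base stretches of its transcripts, Klrb1b shared 27.2% with another gene, Klrb1c 17.0%, Klrb1a 9.9%, Clec2i 4.1%, Clec2d 2.0% and Klrb1f 0.0%. Most of the sharing of Klrb1b and Klrb1c was with Gm44511, a gene on the same strand that covers 26.9% of Klrb1b exon bases and 13.9% of Klrb1c exon bases and has 0 counts in all 13 libraries. How reads in shared exons were counted is not given in the sources used here, so the levels of Klrb1b and Klrb1c per kb are uncertain by that part. Clec2i overlaps part of BC035044 on the other strand, with no shared exon bases, and Klrb1f likewise spans Gm43992 and Gm44000 on the other strand with none.

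Between the genotype labels, none of the 6 genes was called in LrNK. In LrNK labelled CD8KO against LrNK B6 edgeR called 0 of 16504 genes (0%), with 615 genes (3.73%) at an unadjusted p under 0.05. DESeq2 called 62 genes and limma voom 0. The ranges of the samples, given above, were lower in LrNK labelled CD8KO for Klrb1a, Klrb1b, Klrb1c and Clec2d, 4 of the 6 genes, where 8.47% of genes tested had such a separation downward. Klrb1f and Clec2i overlapped.

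The log2 changes in LrNK labelled CD8KO against LrNK B6 were -0.56 ± 0.20 for Klrb1a, -0.62 ± 0.26 for Klrb1b, -0.65 ± 0.28 for Klrb1c, -0.16 ± 0.21 for Klrb1f, -0.60 ± 0.29 for Clec2d and -0.09 ± 0.30 for Clec2i (each edgeR adjusted p = 1.00). The unadjusted p was under 0.05 for 2 of the 6, Klrb1a and Klrb1b. With all 4 groups in 1 fit Klrb1a was called lower (-0.53, edgeR adjusted p = 0.0493), where 0.176% of genes tested were called lower. That fit gives LrNK and cNK 1 common spread, although the biological coefficient of variation was 98.2% among the LrNK samples and 9.6% among the cNK samples.

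The number of detected genes divides the LrNK samples across the labels. Among samples with few detected genes (LrNK labelled CD8KO sample 1 against LrNK B6 samples 1 and 3), the log2 ratio of CPM was -0.60 for Klrb1a, -0.86 for Klrb1b, -0.78 for Klrb1c, -0.24 for Clec2d, -0.05 for Klrb1f and 0.16 for Clec2i. Among samples with many (LrNK labelled CD8KO sample 2 against LrNK B6 sample 2), it was -0.48 for Klrb1a, -0.48 for Klrb1b, -0.62 for Klrb1c, -1.06 for Clec2d, -0.31 for Klrb1f and -0.31 for Clec2i. Klrb1a, Klrb1b, Klrb1c and Clec2d were lower in LrNK labelled CD8KO within each set. For these genes that follows from sample ranges that did not overlap, so the division adds no separate evidence. With 1 sample labelled CD8KO in each set there is no test.

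Sums of several marker lists did not overlap between the labels in LrNK. Those of the NK and T cell markers, given above, were lower in LrNK labelled CD8KO, and so was that of the liver-resident NK markers, at 734 to 742 CPM against 950 to 1311 CPM in LrNK B6. Conventional NK markers, at 142 to 272 CPM in LrNK labelled CD8KO against 57.3 to 111 CPM in LrNK B6, and B cell markers, at 24.1 to 168 CPM against 12.5 to 22.1 CPM, were higher. Scaled to the 5 NK markers, the median gene moved by 0.34 on the log2 scale. Klrb1f (0.20) and Clec2i (0.32) then had a positive log2 change. The other 4 genes kept a smaller negative one, at -0.23 for Klrb1a, -0.32 for Klrb1b, -0.32 for Klrb1c and -0.20 for Clec2d. The part of other cells in these values was not tested.

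In cNK labelled CD8KO against cNK B6, none of the 6 genes was called, where 218 of 16619 genes (1.31%) were. Klrb1a was at 119, 113 and 124 CPM in cNK labelled CD8KO, against 135, 138 and 133 CPM in cNK B6, and the ranges did not overlap. Ranges also did not overlap for Klrb1b and Klrb1c, both higher in cNK labelled CD8KO, which made 3 of the 6 genes, where 18.0% of genes tested had ranges apart in either direction. The log2 change of Klrb1a was -0.19 ± 0.05 (edgeR adjusted p = 0.0970). DESeq2 (adjusted p = 0.0137) and edgeR without the filter on low counts (0.0291) called it. The others were at 0.11 ± 0.06 for Klrb1b (95% interval -0.01 to 0.23), 0.11 ± 0.05 for Klrb1c (0.01 to 0.20), -0.01 ± 0.05 for Klrb1f (-0.12 to 0.10), 0.06 ± 0.06 for Clec2d (-0.08 to 0.19) and -0.10 ± 0.07 for Clec2i (-0.25 to 0.05). The edgeR adjusted p of those 5 genes ran from 0.324 to 0.975.

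The difference of the label effects between LrNK and cNK was tested in a fit of all 4 groups, which called 8 of 19287 genes (0.0415%) and none of the 6. It was -0.71 ± 0.20 on the log2 scale for Klrb1b (edgeR adjusted p = 0.333), -0.73 ± 0.23 for Klrb1c (0.411), -0.33 ± 0.13 for Klrb1a (0.533), -0.62 ± 0.28 for Clec2d (0.590), -0.12 ± 0.16 for Klrb1f (0.996) and 0.04 ± 0.31 for Clec2i (1.00). For Klrb1b the difference was called by DESeq2 (adjusted p = 0.0422) and by edgeR without LrNK labelled CD8KO sample 2 (-1.02, adjusted p = 0.0287).

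**Figure D4:**
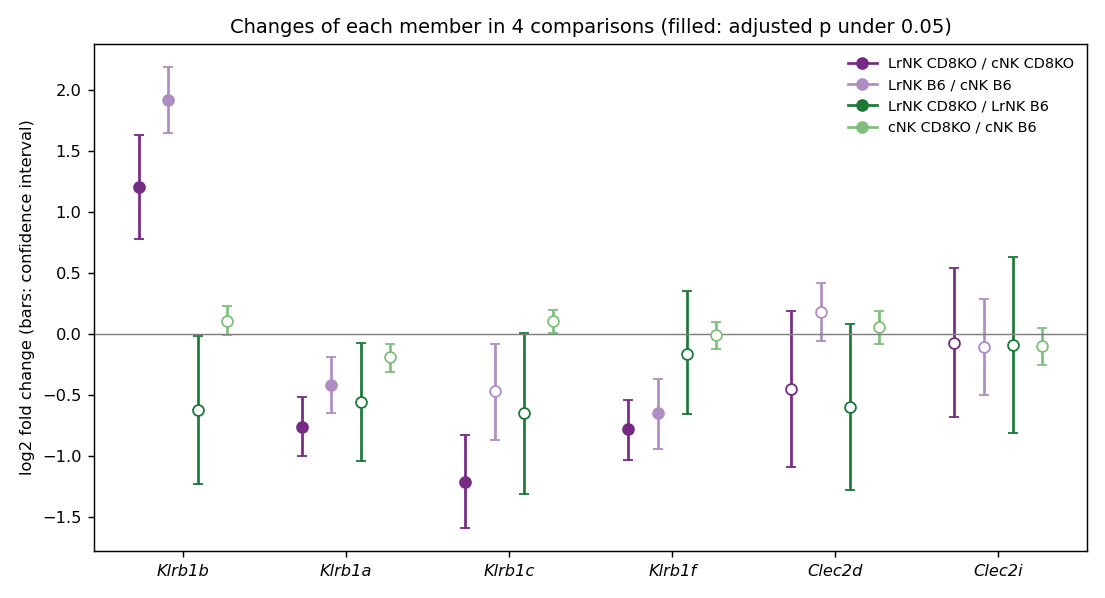
Log2 fold change (vertical axis) of each gene in 4 comparisons, with 95% intervals. Filled points had an edgeR adjusted p under 0.05. Klrb1b is the one gene with filled points above 0, at 1.21 and 1.92, and no point of a comparison between labels is filled.

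The other genes of the family were scarce. Of 12 further Klrb1 and Clec2 genes listed, 8 had a row in the files, and Klrb1 was the one with a mean of at least 1 CPM. Klrb1 averaged 2.37 ± 0.871 CPM in LrNK labelled CD8KO (SD, n = 2) and 4.59 ± 3.67 CPM in LrNK B6, against 12.7 ± 1.17 CPM in cNK labelled CD8KO and 12.3 ± 1.59 CPM in cNK B6 (n = 3 each). It fell in LrNK labelled CD8KO by 2.27 ± 0.33 on the log2 scale against cNK labelled CD8KO (edgeR adjusted p = 0.00674). For B6 its log2 change of -1.35 ± 0.61 was not called (edgeR adjusted p = 0.178), and without LrNK B6 sample 3 it was (-2.15, adjusted p = 0.0247). Klrb1, which carries ITIM codons like Klrb1b, thus had its higher level in cNK.

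Clec2l, which lies apart from the cluster on chromosome 6, had 0.707 to 2.36 CPM in LrNK B6 against 0.0874 to 0.193 CPM in cNK B6. Its log2 change was 3.57 ± 0.95 for B6 and 3.09 ± 0.97 for the CD8KO labels. In cNK it was near the floor, with 2 to 14 counts in a library. It passed the filter on low counts through the LrNK samples, so no call is read from it. Clec2e and Clec2h had 0 counts in all 13 libraries. Clec2f, Clec2g, Clec2j and Klrb1-ps1 did not exceed 0.318 CPM in any library.

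Between the outermost of the 6 genes lie 30 other annotated genes, Klrb1 among them, of which 6 are protein-coding. Of these 30, edgeR called none between LrNK B6 and cNK B6 (9 tested, none with an unadjusted p under 0.05) and none between the labels (1 in cNK had an unadjusted p under 0.05). Between LrNK and cNK labelled CD8KO 10 were tested, 1 was called higher and 2 lower, where 15.4% and 11.6% of all genes tested were. Besides Klrb1, these were Gm15987 (1.91 ± 0.50, edgeR adjusted p = 0.0410, 3.96 to 9.77 CPM in LrNK against 1.24 to 2.39 CPM in cNK) and Gm43992. Gm43992 had 0 CPM in the LrNK samples against 0.157 to 0.620 CPM in cNK, which is 9 to 37 counts. It passed the filter on low counts through the cNK samples alone, so its call is not read as a difference.

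Genes that carry the receptor signals were examined as a list of 18, each of which was tested. In LrNK labelled CD8KO against cNK labelled CD8KO 8 were called higher and 4 lower, with a median log2 change of 0.23, where 15.4% of all genes tested were called higher and 11.6% lower, with a median of -0.05. In LrNK B6 against cNK B6 6 were called higher and 5 lower, with a median of 0.33, where 10.9% and 9.83% of all genes were, with a median of -0.08. Between the labels none was called in LrNK or in cNK.

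Ptpn6, which encodes the phosphatase SHP-1 that the ITIM of NKR-P1B recruits, averaged 399 ± 144 CPM in LrNK labelled CD8KO (n = 2) and 322 ± 78.4 CPM in LrNK B6, against 206 ± 6.38 CPM in cNK labelled CD8KO and 200 ± 5.72 CPM in cNK B6 (SD, n = 3 each). It was called higher in LrNK for the CD8KO labels (1.07 ± 0.19, edgeR adjusted p = 0.0139) and for B6 (0.76 ± 0.17, edgeR adjusted p = 0.0234). Ptpn11, of the related phosphatase SHP-2, was called lower for B6 (-0.41) and not for the CD8KO labels (-0.33). In LrNK B6 sample 2, whose neutrophil and monocyte sum was below that of cNK B6, Ptpn6 was at 236 CPM, against 195 to 207 CPM in cNK B6. It was highest (501 CPM) in LrNK labelled CD8KO sample 1, which had the highest such sum (10121). The part of other cells in the Ptpn6 level was not tested.

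Fcer1g, the adaptor chain of NKR-P1C, averaged 623 ± 15.9 CPM in LrNK labelled CD8KO and 797 ± 129 CPM in LrNK B6, against 660 ± 12.3 CPM in cNK labelled CD8KO and 612 ± 34.9 CPM in cNK B6. It was not called for the CD8KO labels (0.04 ± 0.10, edgeR adjusted p = 0.797) or for B6 (0.46 ± 0.14, edgeR adjusted p = 0.0693). For the CD8KO labels the CPM means differ in the other direction, because CPM uses total counts and the test uses TMM scaling. Cd247, of the CD3 zeta chain that can pair with the Fcer1g chain, was called lower for both (-1.88 and -0.98).

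Of the Src family kinases, Lck was called lower for the CD8KO labels (-0.77 ± 0.13, edgeR adjusted p = 0.0116) and not for B6 (-0.33 ± 0.12, edgeR adjusted p = 0.112). Fyn was called lower for both (-1.59 and -1.50), and Lyn higher for both (1.88 and 1.08). Lyn was at 89.7 CPM in LrNK B6 sample 2, whose neutrophil and monocyte sum was below that of cNK B6, against 77.2 to 79.7 CPM in cNK B6. It was highest (338 CPM) in LrNK labelled CD8KO sample 1, which had the highest such sum (10121). The part of other cells in the Lyn level was not tested. Of the kinases that bind phosphorylated adaptor chains, Zap70 was called higher for both (0.54 and 0.98), and Syk lower for B6 (-0.92) and not for the CD8KO labels (-0.18).

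Further along, Plcg1, of phospholipase C gamma, showed the greatest change of the list. It averaged 56.9 ± 3.39 CPM in LrNK labelled CD8KO and 60.2 ± 23.6 CPM in LrNK B6, against 4.36 ± 0.280 CPM in cNK labelled CD8KO and 5.17 ± 0.162 CPM in cNK B6. Its log2 change was 3.83 ± 0.14 for the CD8KO labels and 3.63 ± 0.33 for B6 (edgeR adjusted p = 1.74e-04 and 0.00112). The adaptor Lcp2 (SLP-76) was called higher for both (0.92 and 0.86) and Lat2 lower for both (-0.91 and -0.48). Lat was called higher for B6 (0.75) and not for the CD8KO labels (0.09). Vav2 (1.15), Vav3 (1.01) and Plcg2 (0.69) were called higher for the CD8KO labels and not for B6 (0.26, 0.88 and 0.41).

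**Figure D5:**
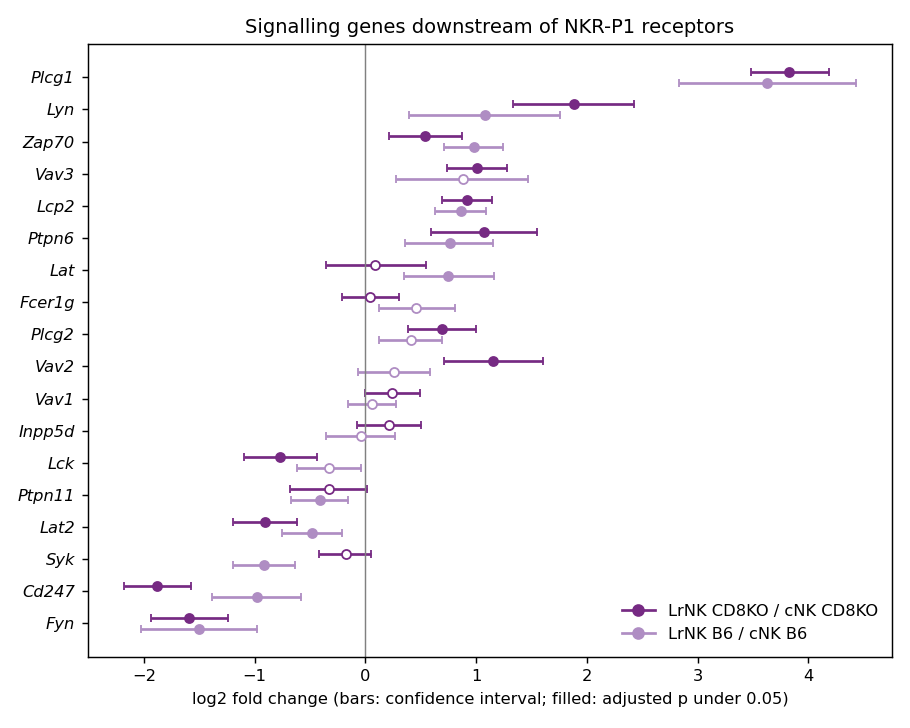
Log2 fold change of LrNK over cNK (horizontal axis, with 95% intervals) for the 18 signalling genes, for the CD8KO labels (darker) and B6 (lighter). Filled points had an edgeR adjusted p under 0.05. Plcg1 lies farthest to the right, at 3.83 and 3.63, and Fyn and Cd247 farthest to the left.

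The genes whose pattern over the 11 samples was most like that of each member were found by the root mean square difference of centred log2(CPM + 0.5), among 9660 genes. For Klrb1b they were Spint2 (0.14), Hvcn1 (0.14) and Cd160 (0.15), a receptor of NK cells with means of 318 CPM in LrNK labelled CD8KO and 489 CPM in LrNK B6, against 130 CPM in cNK labelled CD8KO and 119 CPM in cNK B6. For Klrb1c they were Ugcg, Cipc and Esyt2 (0.12 each), for Klrb1a Cnep1r1 (0.08), Cr1l and Akr1c13 (0.09 each), and for Klrb1f Pcmtd1, Ranbp2 (0.07 each) and Dcaf6 (0.08). For Clec2d they were Ppih, Cinp (0.13 each) and Pdcd10 (0.14), and for Clec2i Riox2, Arhgef6 and Smc4 (0.11 each). None of these 18 genes is on chromosome 6. For scale, the members' own root mean square deviation was 0.79 for Klrb1b, 0.52 for Klrb1c, 0.41 for Klrb1f, 0.38 for Klrb1a, 0.32 for Clec2d and 0.28 for Clec2i.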

How the data were processed

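RNA of sorted NK cells was made into TruSeq libraries, per the labels. The deposited values are whole-number read counts per Ensembl gene from the authors, 1 file for each of 13 libraries with 54532 rows, not normalized. Alignment software HISAT2 2.1.0 and the genome build GRCm38 are listed by the submitters' processing notes. Neither the tool that counted reads nor its annotation or use of strand is given in the sources used here, so genes that overlap on opposite strands cannot be separated. GENCODE M21 gave names and coordinates for 54495 rows, and 37 had no match.

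CPM is the count per 1000000 counts of the library. Per-kb values use the union of a gene's exons. Libraries of 1 group were summed where their chi-square per degree of freedom, over genes with at least 12 counts, was below 4 and at least 3 times smaller than that of the group's other pairs. Genes were tested with edgeR 4.0.16 (R 4.3.3) by TMM scaling, filterByExpr (minimum count 10, minimum total 15), the quasi-likelihood test and Benjamini-Hochberg adjustment over all genes tested, and called at an adjusted p under 0.05. Each comparison was fitted on its own groups, because LrNK samples vary far more than cNK samples, and the difference of label effects on all 4. Limits on depth cover counting error only. Alternatives used DESeq2 1.42.0, limma 3.58.1 (voom with sample weights), other scalings, no filter, separate libraries, a replicate block, and each sample left out. A limit of 16000 detected genes separated samples with few and many.

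The 6 members, the family, signalling and marker lists and the limits were chosen with earlier results of these data known. Genes named were the members, family genes with a mean of at least 1 CPM, called signalling genes with Fcer1g, Ptpn6 and Lck, called genes of the locus, and the 3 genes most like each member with a mean of at least 4 CPM, predicted genes left out. Clec2l was added after its values were seen. Motifs and identities were computed with Biopython 1.88.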

Additional observations from a re-analysis of the deposited data

How the results depend on the processing

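Klrb1b was called higher in LrNK under each of 14 alternatives for the CD8KO labels (log2 0.89 to 1.71) and each of 15 for B6 (1.84 to 2.13), and Klrb1c lower under each of 14 for the CD8KO labels (-1.47 to -0.70). For the CD8KO labels, Klrb1a and Klrb1f were each called in 12 of 14. For B6, Klrb1a was called in 9 of 15, Klrb1f in 11 and Klrb1c in 4. Of the results for single genes over all alternatives, 18 changed sign. None of these sign changes is of Klrb1a, Klrb1b or Klrb1c.

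Scaling to NK markers gave positive log2 changes for Klrb1f (0.20) and Clec2i (0.32) between the labels in LrNK, for Clec2d (0.14) and Clec2i (0.52) in LrNK against cNK labelled CD8KO, for Clec2i in LrNK B6 against cNK B6 (0.09) and for Klrb1f in the difference of label effects (0.22). Leaving out 1 sample at a time put Clec2i between the labels in LrNK at -0.53 to 0.25 (0.06 without LrNK B6 sample 1, 0.25 without LrNK labelled CD8KO sample 2), and in LrNK against cNK labelled CD8KO at -0.56 to 0.25. In cNK between the labels it put Klrb1f at -0.04 to 0.03 and Klrb1 at -0.07 to 0.11. In the difference, Clec2i was at -0.16 with voom, -0.07 with 13 separate libraries and -0.43 to 0.37 without single samples. Of these, Clec2i against cNK was called without LrNK labelled CD8KO sample 1 (1.07e-04) and without sample 2 (0.0149), and the cause was not tested.

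Counts of called genes depended on the setting. For LrNK between the labels (0), no filter gave 259, DESeq2 62, all 4 groups in the fit 138, 13 separate libraries 22 and voom 0, and leaving out any sample gave 0. For cNK between the labels (218), no filter gave 590, DESeq2 512, voom 332 and all 4 groups 1, and leaving out a sample gave 71 to 254 (90 without cNK B6 sample 1 and 71 without cNK labelled CD8KO sample 2). For LrNK against cNK labelled CD8KO (4804), leaving out a sample gave 1688 to 13004: 10872 and 13004 without either LrNK sample, at most 1803 without a cNK sample. For B6 (3414), it gave 1021 to 6856, with 6856 without LrNK B6 sample 2 and at most 1101 without a cNK sample. For the difference (8), NK marker scaling gave 1, DESeq2 337 and 13 separate libraries 68, and leaving out a sample gave 5 to 645 (16, 645 and 55 without LrNK B6 samples 1, 2 and 3, 253 without LrNK labelled CD8KO sample 2 and 5 without any cNK sample). A fit left with 1 sample in a group assumes it to vary like the others.

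Scaling moved the balance of calls in LrNK against cNK. For the CD8KO labels, 2735 higher and 2069 lower became 4963 and 694 with NK markers, and 2373 and 2639 with total counts, which moved the median gene by -0.13 on the log2 scale. For B6, 1797 higher and 1617 lower became 2105 and 1138 with NK markers, and 1578 and 1868 with total counts. In the difference, NK markers moved the median gene by 0.31 and 1 higher and 7 lower became 0 and 1.

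The replicate numbers were not taken to pair the samples: deviations of same-numbered samples correlated at 0.01, 0 and 0.08 in cNK between the labels. In LrNK, with 2 shared numbers (0.31 and 0.52), pairing is undecided. With the number as a replicate block, 180 genes were called between the labels in LrNK, 355 in cNK, 2162 in LrNK against cNK labelled CD8KO and 1801 for B6. Klrb1b kept its calls (1.17 for the CD8KO labels and 1.92 for B6), as did Klrb1c for the CD8KO labels, while Klrb1a (-0.74 for the CD8KO labels, adjusted p = 0.0664, and -0.42 for B6, 0.133) and Klrb1f (-0.76, 0.0591, and -0.66, 0.0525) were not called under the block, with changes of about the same size.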
